A study of Mus musculus with 6 samples.

Results

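The genes described here are the potassium channel subunits, chosen by symbol. A probe set was taken when its gene symbol began with Kcn followed by lower-case letters and a digit, the brightest probe set over the 6 arrays stood for its gene, and the gene was kept when that mean intensity was at least 40. Of 84 genes with such a symbol 69 were kept, among 15103 named genes tested, and 67 of the 69 encode channel subunits. The other kept members, Kcnq1ot1 and Kcnmb4os2, are noncoding RNAs named after a neighbouring channel gene. Just inside the minimum lay Kcng2 with a mean of 41.5 and Kcnk3 with 51.1, and just outside it Kcnmb4os1 with 39.5 and Kcne1l with 36.4. Among the 15 genes below it, Kcnj2, Kcnq1 and Kcns1 were listed at 1 on every array, which looks like a floor of the software.

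Gene expression was measured in male C57BL/6J mice, in RNA of the ganglion cell layer that was cut out by laser capture from frozen sections, at about 6000 cells per eye, and amplified. The 3 arrays of the crush group came from eyes taken 6 hrs after the optic nerve was crushed with forceps, and the 3 control arrays came from noninjured contralateral eyes of the same animals. The controls thus share the animal with the injured eye and are no sham-operated eyes. The layer also holds astrocytes, displaced amacrine cells, microglia, vessels and Muller cell processes. In such bulk samples fewer cells of a type and less RNA per cell cannot be told apart.

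Potassium channels set the resting potential of neurons, repolarize them after each spike and space their firing, and in Muller cells they carry away potassium that active neurons release. Voltage-gated (Kv) channels are built from alpha subunits, which can be joined by modifier alpha subunits that form no channel alone and by auxiliary proteins. Calcium- and sodium-activated channels open after activity, inward rectifiers (Kir) hold the membrane near rest, and tandem-pore leak channels pass a background current. Retinal ganglion cells (RGCs) are known for Kv currents that allow sustained fast firing.

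The tissue label was checked with marker genes. Of 20 RGC markers 18 were measured, and the neurofilament gene Nefl was between 12173 and 14474 on all arrays and the ganglion cell transcription factor Pou4f1 between 6476 and 7961, while Pou4f2 and Rbpms2 had no probe set at the minimum. Photoreceptor markers were present as well, since 12 of 14 rod markers were measured and their summed intensity was 45468 to 78020 in control eyes and 64004 to 72887 in crushed eyes. Of 8 lens markers 6 were measured. Their sum was 15146 in control eye 1 and 10168 in crush eye 1, against 2378 to 4852 in the other eyes. The median intensity was 131.2 on the array of crush eye 2, 153.9 on that of crush eye 3 and 141.1 to 142.6 on the others. Low values gathered on the array of crush eye 2, where 10.5% of all named genes lay more than 0.5 below each other array on the log2 scale, against 0.166% to 1.19% on the others. On that array the pattern was also seen among the channel genes, of which 12 (17.4%) were lowest by that margin, and 32 of 69 (46.4%) had their lowest value there, against 36.5% of all genes. Kcnk10, Kcnq1ot1 and Kcnt1 (4.35%, against 1.6% of all genes) were highest by that margin on the array of crush eye 3.

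**Figure D1:**
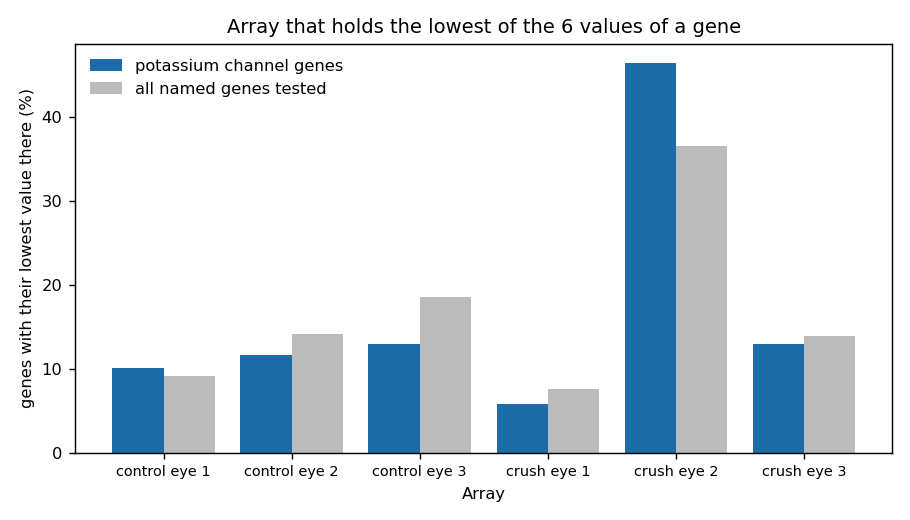
Percentage of genes (vertical axis) whose lowest value of the 6 lies on each array (horizontal axis), for the 69 potassium channel genes (blue) and for all 15103 named genes tested (grey). The array of crush eye 2 holds the lowest value of 46.4% of the channel genes and of 36.5% of all genes.

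At 6 hrs after crush the potassium channel genes had about the same median difference as all genes, and few single members stood out. On log2 intensity 31 of 69 were above 0 and 38 below (44.9% and 55.1%, against 45.7% and 54.3% of all genes), with a median difference of -0.02, as for all genes (-0.02). By pair the median of the members ran 0.05, -0.19 and 0.04 for pairs 1, 2 and 3, against 0.01, -0.10 and 0.04 for all genes. In the paired limma fit 4 members were higher (5.8%, background 2.76%) and 1 was lower (1.45%, background 2.27%) at an unadjusted p under 0.05. After Benjamini-Hochberg adjustment in limma, 0 of the 69 members and 0 of the 15103 genes (0%) were under 0.05. With the study's size thresholds added to the p from limma, which ask for a mean changed by more than 1.2 times and by more than 80 units of intensity, 2 members were higher (background 1.5%) and 1 lower (background 0.695%). In the crushed eye of all 3 pairs 11 members were higher (15.9%, background 15.2%) and 13 lower (18.8%, background 15%). Groups did not overlap for 2 higher members, Kcnj1 and Kcnq5 (2.9%, background 5.69%), and for 3 lower ones, Kcna5, Kcnd3 and Kcnk1 (4.35%, background 5.32%). These are counts of few genes, some above and some below the background share. With the methods' t-test none of the 5 members that limma put under an unadjusted p of 0.05 passed, and those that did were Kcnf1 and Kcnn2, higher, and Kcnk1, lower.

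The arrays after crush differed more among themselves than the control arrays did. Those of crush eyes 2 and 3 had the lowest and highest median intensity, and their part in this spread was not tested. The median SD of a member over 3 eyes was 0.26 on the log2 scale after crush and 0.14 in controls, and it was larger after crush for 51 of 69 members (73.9%, against 64.1% of all genes). The 95% interval of the log2 difference lay between -1 and 1 for 65 of 69 members and between -0.5 and 0.5 for 21. A log2 difference of 1 or more in either direction was thus outside the interval for 65 members, and 1 of 0.5 or more for 21. The 4 members whose interval reached beyond -1 or 1 were Kcne2, Kcnj6, Kcnq1ot1 and Kcns3.

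**Figure D2:**
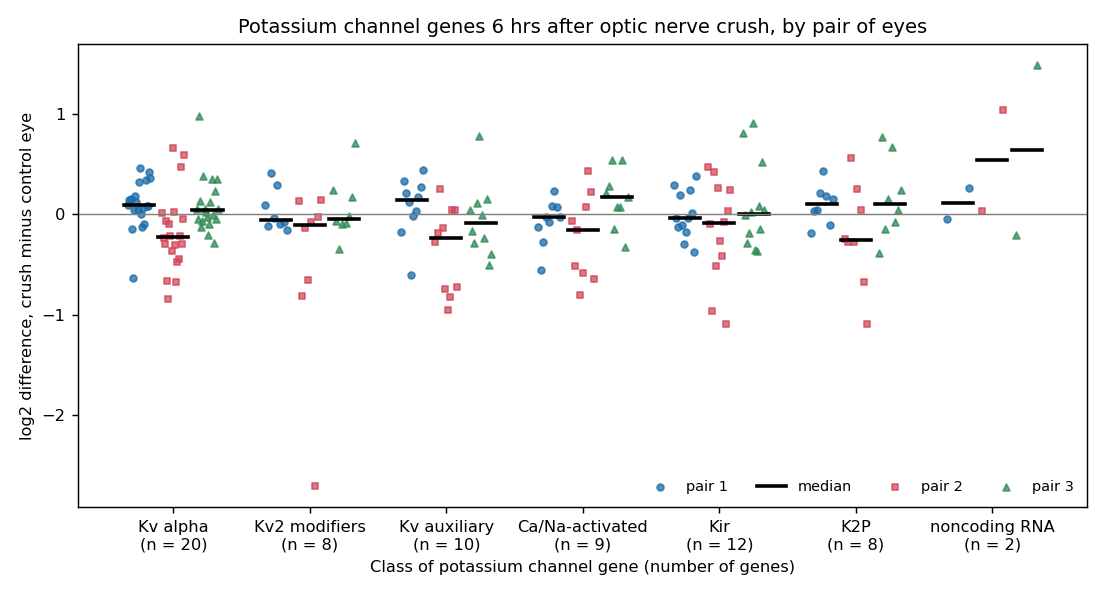
Log2 intensity of the crushed eye minus that of its control (vertical axis) for each of the 69 members by class (horizontal axis), with 1 symbol per gene and pair of eyes and a black bar for the median of the class in that pair. In pair 2 the medians of all 6 subunit classes lie below 0, and the lowest single symbol is Kcns3 in pair 2 at -2.71. The median of all named genes tested, not drawn, was -0.10 in pair 2.

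Among 20 Kv alpha subunits 8 were above 0 and 12 below, with a median log2 difference of -0.02, and 1 passed an unadjusted p under 0.05. This was Kcna5, a delayed rectifier subunit of the Kv1 family best known from heart and vascular muscle. Its intensity was 2725, 3065 and 2344 in control eyes 1, 2 and 3 and 1753, 1938 and 2140 in the crushed eyes of the same pairs. All crushed eyes were below all control eyes. Control eyes averaged 2711 ± 361 and crushed eyes 1944 ± 193 (mean ± SD, n = 3 per group, as for all such pairs of values below), which gave a log2 difference of -0.48 (standard error 0.17, unadjusted p = 0.0359, adjusted p = 0.642 from limma), and it met the study's size thresholds. With the methods' t-test it did not pass. Pairs 1 and 2 differed by -0.64 and -0.66 but pair 3 by -0.13, and without pair 1 or pair 2 it did not pass (-0.40 and -0.38). The gene lies on chromosome 6 at 126532551 to 126535555 (GRCm38.p6). Muller cell markers also had negative medians in the 3 pairs (-0.31, -0.15 and -0.13, with 12 of 14 lower and summed intensities of 59868 to 66850 in controls and 56868 to 58487 after crush), as had bipolar cell markers (-0.26, -0.41 and -0.11, with 10 of 10 lower and sums of 22847 to 26341 in controls and 20158 to 22408 after crush). Amacrine cell markers were lower in 13 of 15 cases and lens markers in 5 of 6, but with medians above 0 in pair 3 (0.02 and 0.06). All 12 measured rod markers were higher on average over the pairs, but all 12 were lower in pair 1 (medians -0.16, 0.22 and 0.74). Endothelial and mural cell markers divided evenly, with 6 of 12 lower and medians of -0.12, 0.21 and 0.02 in pairs 1, 2 and 3. The part of any of these cell types in the value of Kcna5 was not tested.

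The subunits of axonal and fast-firing channels were measured at high signal, and none of them passed an unadjusted p under 0.05 on its brightest probe set. Kcna1, a low-threshold channel of axons, was at 4821, 4427 and 4733 in control eyes and 5151, 4452 and 4919 after crush. Its partner Kcna2 was at 5182, 5735 and 4890 and at 5713, 4874 and 4730. Neither pattern separated the groups, and the log2 differences were 0.05 (95% interval -0.28 to 0.39) and -0.05 (-0.42 to 0.33). The Kv3 subunits Kcnc1 and Kcnc2, which allow fast repetitive firing, had log2 differences of 0.15 (-0.25 to 0.56) and -0.01 (-0.39 to 0.36), and Kcnc1 was highest on the array of crush eye 3 at 6263. For these 4 genes a fall or rise by 1 on the log2 scale was outside the interval.

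The A-type subunits of the Kv4 family did not move as one. Kcnd3 was at 4798, 5633 and 4898 in control eyes and 4793, 4547 and 4568 after crush, so that the groups did not overlap, although the eyes of pair 1 were nearly level. Its log2 difference was -0.14 (unadjusted p = 0.382 from limma). Kcnd2 was higher in pair 1 by 0.46, nearly level in pair 2 with 0.02 and lower in pair 3 with -0.21. Kcnd1 was at 692 ± 142 in control and 851 ± 61.5 in crushed eyes, a log2 difference of 0.32 (unadjusted p = 0.133 from limma).

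Of the M-current subunits, which open slowly below spike threshold and restrain firing, Kcnq5 was dim at 65.7, 54.0 and 74.7 in controls and 84.2, 81.2 and 77.6 after crush. All crushed eyes were above all controls, with a log2 difference of 0.33 (unadjusted p = 0.0938 from limma), and its other probe set had 0.41 (unadjusted p = 0.0833). Kcnq3 had a log2 difference of 0.24 on its brightest probe set but -0.33 on the dimmer one, neither past the threshold. The 6 measured ether-a-go-go subunits lay between -0.23 and 0.26, with 5 of 6 below 0, and Kcnh7 was the one above. In pair 2 the subfamily median was -0.37, against 0.07 and 0.06 in pairs 1 and 3.

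Modifier subunits of Kv2 channels held the largest single fall of the family, in 1 eye. Kcns3 was at 2487, 2535 and 3285.5 in control eyes and 2321 and 3252 in crush eyes 1 and 3, but at 387.3 in crush eye 2. The pair differences were -0.10, -2.71 and -0.01, and the fitted log2 difference of -0.94 (standard error 0.56, unadjusted p = 0.152 from limma) was -0.06 without pair 2. Kcns2, of the same subfamily, was at 1934 on that array against 1880 to 2299 on the others, a log2 difference of 0.04. All 3 Kcng genes were below 0 as well, with a subfamily median of -0.26 that was -0.66 in pair 2 and -0.03 and -0.10 in the others. Kcnf1 was above 0 in all 3 pairs, at 0.15 with intensities of 73.6 to 113.8, but its dimmer probe set had -0.12.

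Kcnv2, a modifier subunit of photoreceptors in which mutations cause a cone dystrophy, had a difference that changed sign between pairs. It was at 5248, 3568 and 2890.5 in control eyes and 4723, 3938 and 4731 after crush. The inward rectifier Kcnj14 had the same order, at 4883, 2862 and 2548 in controls and 3972, 3441 and 4781 after crush. The log2 differences in pairs 1, 2 and 3 were -0.15, 0.14 and 0.71 for Kcnv2 and -0.30, 0.27 and 0.91 for Kcnj14. Rod markers had medians of -0.16, 0.22 and 0.74 in these pairs and cone markers -0.25, 0.13 and 0.89. Of the rod markers all 12 were above 0 on average and none passed an unadjusted p under 0.05, while 1 of 9 cone markers did. Kcnv2 did not pass (log2 difference 0.23, unadjusted p = 0.303 from limma), nor did Kcnj14 (0.29, unadjusted p = 0.297). The part of photoreceptor RNA in the values of both genes was not tested. RGC markers had a different order, with 0.24, -0.21 and -0.15.

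**Figure D3:**
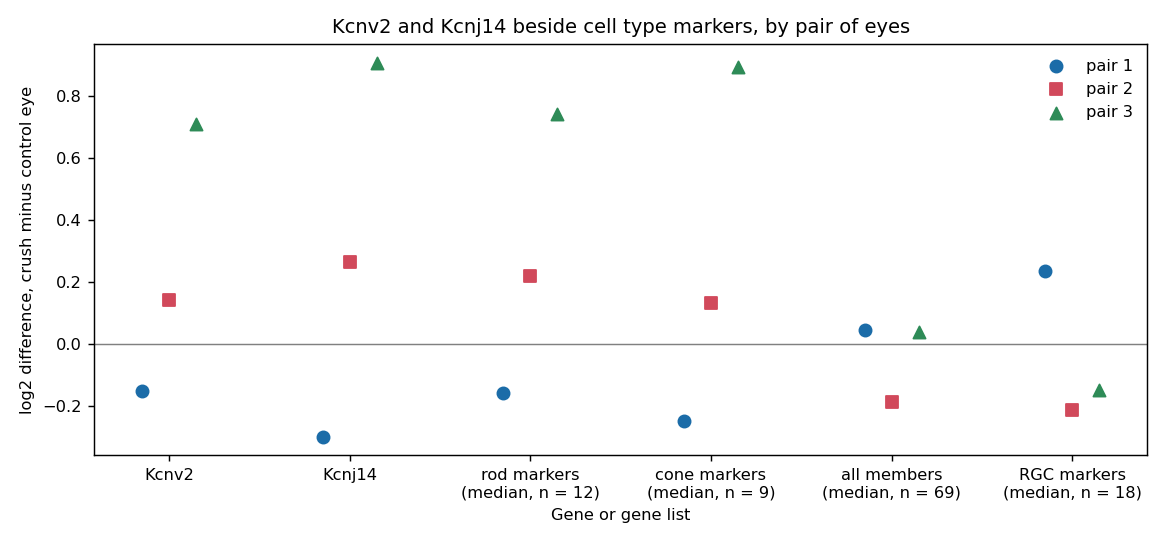
Log2 intensity of the crushed eye minus that of its control (vertical axis) in each pair for Kcnv2, Kcnj14 and the medians of gene lists (horizontal axis), with the number of genes in parentheses. Kcnv2, Kcnj14 and both photoreceptor lists lie below 0 in pair 1 and highest in pair 3, while the median of all 69 members stays between -0.19 and 0.05.

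Auxiliary subunits of Kv channels were below 0 in 7 of 10 cases, with a median of -0.10 and 0 past an unadjusted p under 0.05 from limma. Their medians were 0.14, -0.23 and -0.09 in pairs 1, 2 and 3, so that the sign differed between pairs. Kcnip4, a calcium-binding partner of Kv4 channels, was at 2415, 2960 and 2650 in controls and 3285, 1790 and 2015 after crush. Its log2 difference of -0.23 joins a higher value in pair 1 (0.44) with lower ones in pair 2 (-0.73) and pair 3 (-0.40), and its other probe sets were below 0 too. Kcnip1 had -0.34 on its brightest probe set, where crush eye 2 was at 1199 against 2129 to 2516 on the other arrays. Kcnip2 was higher in all 3 pairs, but by only 0.12, with 1339 ± 118 in control and 1456 ± 81.9 in crushed eyes. The beta subunit gene Kcnab2 had a log2 difference of -0.01 and Kcnab1 one of -0.14. Kcne4, which restrains some Kv channels, was dim and lower mainly in pair 2, at 51.6 against 75.8 to 99.7 elsewhere.

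The class of calcium- and sodium-activated channels was formed by symbol (Kcnma, Kcnmb, Kcnn, Kcnt and Kcnu), not by how each channel opens. Of its 9 genes 4 were above 0 and 5 below, with a median of -0.01, and Kcnt1 passed an unadjusted p under 0.05. Kcnt1 encodes a sodium-activated channel that contributes to the slow potassium current after bursts of spikes. It was at 495.5, 465.5 and 654.1 in control eyes and 583.1, 627.9 and 953.9 after crush. Every crushed eye was above its own control, although the groups overlapped. The averages were 538 ± 101 in control and 722 ± 202 in crushed eyes, a log2 difference of 0.40 (standard error 0.14, unadjusted p = 0.0356, adjusted p = 0.642 from limma). It met the study's size thresholds. Its other probe sets had 0.56 (unadjusted p = 0.0309) and 0.24 (unadjusted p = 0.185), so that all 3 were above 0. Without pair 1, 2 or 3 its brightest probe set did not pass, with log2 differences of 0.49, 0.39 and 0.33. Nor did it pass without the block, with arrays scaled to the same median or with the methods' t-test. Its relative Kcnt2 had -0.01.

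The large-conductance channel gene Kcnma1 was at 3054, 3257 and 2679 in control eyes and 2790, 3107 and 3103 after crush, and the log2 difference was 0.0048 (95% interval -0.37 to 0.38). Its 4 dimmer probe sets ran from -0.59 to 0.52. The lowest of them passed an unadjusted p under 0.05 (-0.59, unadjusted p = 0.036 from limma), at 654.0, 875.4 and 448.5 in controls and 376.7, 462.4 and 429.5 after crush. Another was at 1167 in crush eye 3 against 231.4 to 529.0 on the other arrays. Kcnmb4, the neuronal beta subunit of this channel, had -0.33, with -0.81 in pair 2. The small-conductance channel gene Kcnn2 was even between pairs, with 0.08, 0.07 and 0.07, and averaged 512 ± 86.3 in control and 540 ± 90.6 in crushed eyes. It did not pass in limma (unadjusted p = 0.591), but did with the methods' t-test and in limma without the intensity filter.

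The 12 measured inward rectifiers divided evenly, with 6 above 0 and 6 below and a median of 0.01. Kcnj10, the main Kir channel of Muller cells, was nearly level. It was at 5744, 5588 and 5348 in control eyes and 5598, 5218 and 5330 after crush, a log2 difference of -0.05 (95% interval -0.39 to 0.29). The water channel gene Aqp4, which lies beside it in Muller cell endfeet, was at 3111 ± 753 in control and 2405 ± 508 in crushed eyes, a log2 difference of -0.36 (unadjusted p = 0.0494, adjusted p = 0.642 from limma). Whether these 2 genes differed from each other was not tested.

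Kcnj1, known as a channel of the kidney tubule, was the inward rectifier past an unadjusted p under 0.05. It was dim, at 61.4, 65.0 and 69.4 in controls and 75.2, 90.3 and 121.5 after crush, and all crushed eyes were above all controls. The log2 difference was 0.53 (standard error 0.16, unadjusted p = 0.0213, adjusted p = 0.642 from limma). The difference of means was under the study's minimum of 80. Its other probe set had -0.21, with 48.7 on average in controls and 42.2 after crush, and without pair 3 the brighter one had 0.38 and did not pass.

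Genes of ATP-sensitive channels followed different arrays. Kcnj11, the pore of the neuronal type, was at 3147, 2850 and 3673 in controls and 2887, 1465.5 and 3004 after crush, lower in all 3 pairs with a log2 difference of -0.46 (unadjusted p = 0.0741 from limma). Its second probe set gave -0.37, and its partner Abcc8 had -0.28, of which pair 2 held -0.98. Kcnj8, the pore of the vascular type, had -0.38, 0.03 and 0.52 in pairs 1, 2 and 3, and its partner Abcc9 -0.24, 0.26 and 1.18. Endothelial and mural markers had medians of -0.12, 0.21 and 0.02. Among the G protein-gated subunits Kcnj9 was higher in all 3 pairs (0.22) and Kcnj3 lower in all 3 (-0.27), neither past the threshold. Kcnj13, a channel of the pigment epithelium, had -0.20, although 6 of 8 measured markers of pigment epithelium and ciliary body were above 0, led by Ttr with 2.32.

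Of 8 tandem-pore leak channels 5 were above 0 and 3 below, with a median of 0.04. Kcnk3, an acid-sensitive leak channel, passed an unadjusted p under 0.05 near the intensity minimum. It was at 38.1, 52.9 and 39.0 in controls and 51.4, 62.9 and 62.3 after crush, higher in each pair, a log2 difference of 0.45 (standard error 0.15, unadjusted p = 0.0297, adjusted p = 0.642 from limma). The means were 58.9 after crush and 43.4 in controls, and their difference was under the study's minimum of 80. Without pair 1 or pair 3 it did not pass. Kcnk1 was at 2818, 2858 and 3115 in controls and 2477, 2412 and 2389 after crush. Its groups did not overlap and its SD after crush was 45.8, while the log2 difference of -0.27 had an unadjusted p of 0.102 from limma. It passed with a floor of 64, without the intensity filter, with an intensity trend and robust prior and with the methods' t-test (unadjusted p = 0.0216 to 0.0482 over these 4 settings, limma except the last). The dimmer probe set was higher in all 3 pairs with 0.30. The stretch- and lipid-gated channels Kcnk2, Kcnk4 and Kcnk10 had log2 differences of 0.03, 0.05 and 0.17. For Kcnk10 this rested on crush eye 3, at 402.4 against 218.9 to 264.9 elsewhere, while its dimmer probe set was higher in all 3 pairs with 0.50 (unadjusted p = 0.0354, adjusted p = 0.642 from limma).

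**Figure D4:**
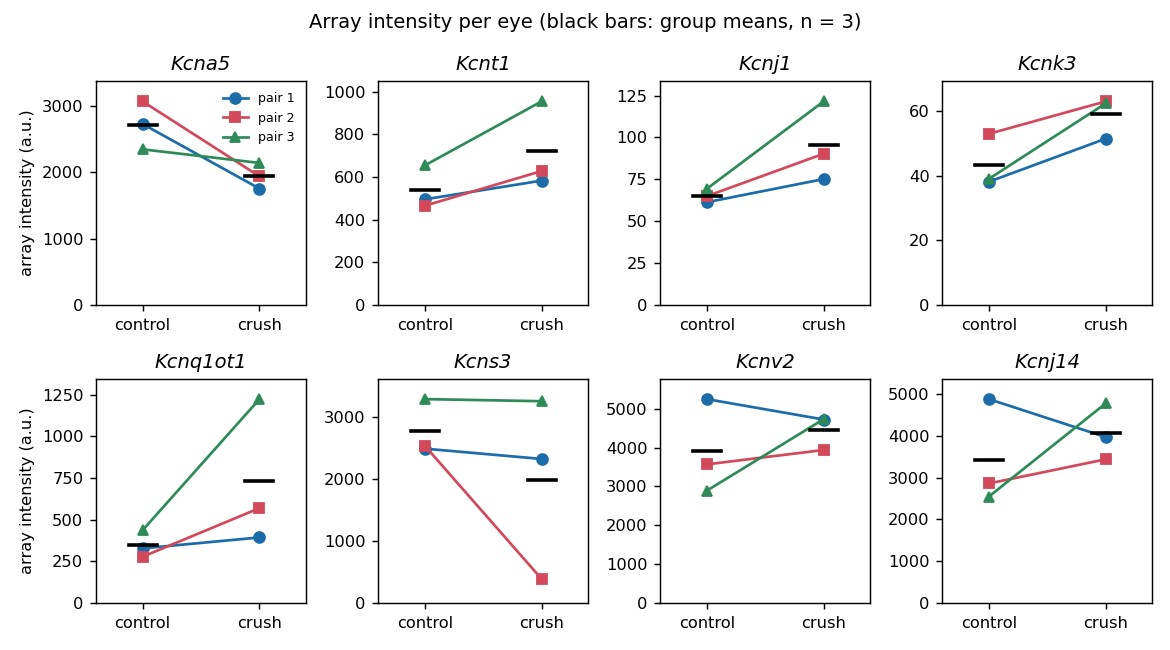
Array intensity (vertical axis, arbitrary units, from 0) of 8 members in control and crushed eyes (horizontal axis), with a line for each pair of eyes and black bars for group means. Kcna5 is lower and Kcnt1, Kcnj1, Kcnk3 and Kcnq1ot1 are higher in the crushed eye of all 3 pairs, Kcns3 drops in pair 2, and Kcnv2 and Kcnj14 are lower in pair 1 and higher in pairs 2 and 3.

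The largest rise was that of a noncoding member. Kcnq1ot1, a long antisense RNA of the imprinted domain around Kcnq1, was at 327.5, 277.3 and 436.7 in control eyes and 393.0, 569.0 and 1224 after crush. Each crushed eye was above its control, most in pair 3, and the groups overlapped. The log2 difference was 0.93 (standard error 0.26, unadjusted p = 0.0141, adjusted p = 0.642 from limma), past the study's size thresholds, and its other probe sets had 0.62 and 0.81, the last with an unadjusted p of 0.0322. On all 3 probe sets the array of crush eye 3 was the highest, and without pair 3 the brightest had 0.65 and did not pass, nor did it without pair 2. Kcnq1 itself was listed at 1 on every array. The other noncoding member, Kcnmb4os2, had -0.07.

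Promoters are shown for the member with the largest rise and for the one that was lower at an unadjusted p under 0.05, to set their sequence beside the values. Each window runs from 250 bases before to 50 after the annotated start (RefSeq, GRCm38.p6), on the strand of the gene. That of Kcna5 is at chr6:126535506-126535805 and that of Kcnq1ot1 at chr7:143296498-143296797, both on the minus strand. Searched on both strands were a STAT site (TTCNNNGAA), an AP-1 site (TGANTCA), the core of the cAMP response element (TGACGT), a GC box (GGGCGG) and a CCAAT box (CCAAT), and matches are in capitals.
Kcna5: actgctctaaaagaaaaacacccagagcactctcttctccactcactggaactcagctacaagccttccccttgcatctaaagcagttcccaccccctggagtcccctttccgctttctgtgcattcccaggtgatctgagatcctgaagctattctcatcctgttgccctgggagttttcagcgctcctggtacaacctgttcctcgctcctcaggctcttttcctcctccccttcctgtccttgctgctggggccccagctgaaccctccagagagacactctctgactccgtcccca
Kcnq1ot1: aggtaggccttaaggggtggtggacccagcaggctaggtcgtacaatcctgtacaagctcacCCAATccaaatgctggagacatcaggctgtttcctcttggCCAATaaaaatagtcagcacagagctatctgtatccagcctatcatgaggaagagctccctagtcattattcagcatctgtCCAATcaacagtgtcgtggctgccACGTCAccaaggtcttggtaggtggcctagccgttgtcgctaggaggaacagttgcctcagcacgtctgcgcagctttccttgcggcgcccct
The window of Kcnq1ot1 held 3 CCAAT boxes and 1 core of the cAMP response element, and that of Kcna5 held none of the 5 motifs. A CCAAT box was found in 37.4% of 32851 promoters and in 24 of 72 promoters (33.3%) of 51 members, and the latter core in 7.51% and in 6 of 72 (8.33%). GC boxes were in 35.7% of all and in 45.8% of the members' promoters, STAT sites in 8.3% and 9.72%, and AP-1 sites in 7.81% and 4.17%. These matches describe the letters only.

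Probe sets of the same gene often differed. Of 30 members with several tested probe sets, all had the same sign in 14 and signs were mixed in 16. Of 48 dimmer probe sets 6 passed an unadjusted p under 0.05, 4 of them higher, and over all 117 probe sets of the members 8 were higher (6.84%, background 5.16% of all probe sets) and 3 lower (2.56%, background 2.51%). The largest value among them was that of a dim probe set of Kcnip1, at 102.7, 93.8 and 132.8 in controls and 122.5, 270.4 and 546.3 after crush (log2 difference 1.27, unadjusted p = 0.0142, adjusted p = 0.642 from limma). The other 3 probe sets of Kcnip1 lay between -0.34 and 0.04. For Kcna1 the dimmest of 4 had -0.51 (unadjusted p = 0.0413), while the brighter ones were between -0.02 and 0.16. For Kcnd2 all 3 were above 0 at 0.09, 0.33 and 0.48, with the same order of pairs each time and pair 1 highest.

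**Figure D5:**
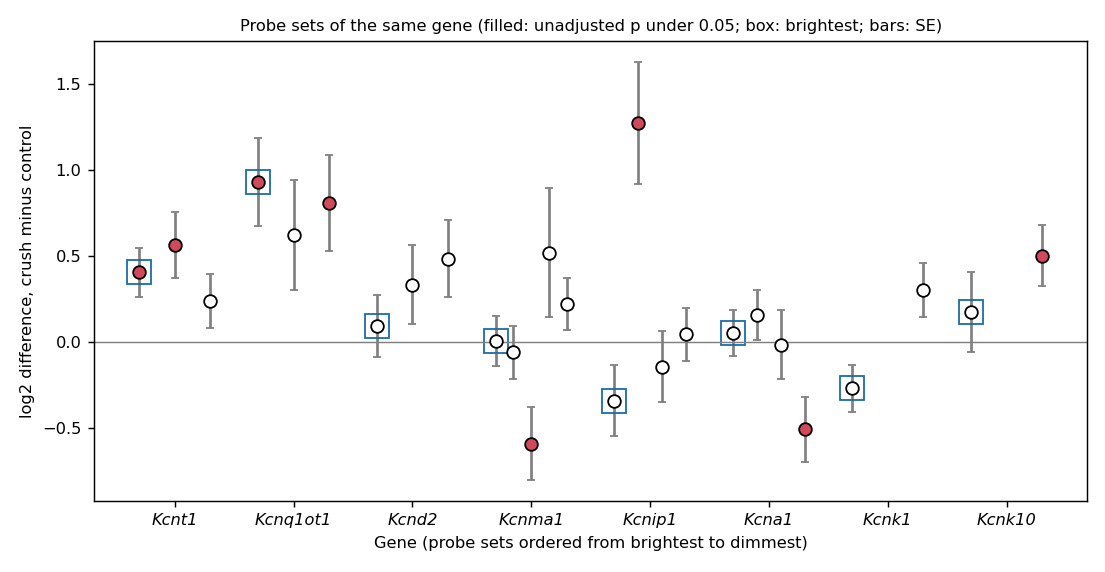
Log2 difference between crush and control (vertical axis) of every tested probe set of 8 members (horizontal axis), from brightest to dimmest, with bars for the standard error, a box around the brightest and a filled symbol where the unadjusted p from limma was under 0.05. All probe sets of Kcnt1, Kcnq1ot1, Kcnd2 and Kcnk10 lie above 0, and those of Kcnma1, Kcnip1, Kcna1 and Kcnk1 lie on both sides.

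Other genes of potassium channel function, whose symbols fall outside the rule, were read from a list of HCN channels and of auxiliary, anchoring and regulatory partners. Of 46 listed genes 32 were measured. Of these 12 were above 0 and 20 below, with a median of -0.04, and 0 were higher and 1 was lower (Aqp4) at an unadjusted p under 0.05 from limma, against a background of 2.76% higher and 2.27% lower. The medians in pairs 1, 2 and 3 were 0.09, -0.14 and 0.02. Those of the 69 members were 0.05, -0.19 and 0.04, and those of all genes 0.01, -0.10 and 0.04. The pacemaker channel gene Hcn2 was at 66.2 ± 17.8 in control and 89.5 ± 15.5 in crushed eyes and Hcn3 at 1277 ± 172 and 1062 ± 278. Dpp6 and Dpp10, partners of Kv4 channels, had log2 differences of -0.08 and -0.19, and Cntnap2, which clusters Kv1 channels on axons, had -0.06.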

How the data were processed

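Values were taken for 6 Affymetrix Mouse Genome 430 2.0 arrays, 3 control and 3 crush, 1 per eye. Each probe set has a deposited intensity on a linear scale, for which the authors ran dChip with invariant set normalization on perfect match and mismatch probes. Here values below 16 were raised to 16 before log2. Of 45101 probe sets, 33169 whose mean reached 40 were tested, without the 64 Affymetrix control probe sets, in R 4.3.3 with limma 3.58.1, with Benjamini-Hochberg adjustment over them all. The eye number was a block, because the study tested by pair and took contralateral eyes as controls. Same-numbered eyes deviated together, with r = 0.154, 0.125 and 0.297 over probe sets, although control eye 2 had 0.131 with crush eye 1. The labels give no animal for an eye, so the pairing is inferred, and a pair here means eyes of the same number. With the block, p-values and intervals rest on the spread of the differences between same-numbered eyes. In limma the spread of each probe set is drawn toward a value pooled over all tested probe sets. Kcnn2, with differences of 0.08, 0.07 and 0.07 in pairs 1, 2 and 3, thus had a standard error of 0.13.

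Probe sets were named through GEO's platform annotation, and 34958 carried 1 symbol and 932 several, while 9211 are unnamed here. Those with several were not used for naming. Intensities were compared within a probe set only. The members and lists were chosen with earlier results of these data known. Genes named were every member past an unadjusted p under 0.05, in each class those with the highest and lowest log2 difference among members of 1 sign over the pairs, and 25 genes known from retina, of which 21 were kept. Kcnip1, Kcnj8, Kcnj3, Kcnd1, Kcnab1, Kcns2, Kcnt2, Kcnh7 and the named partner and marker genes fall outside this rule and were chosen after their values were seen. Alternatives covered the block, floor, filter, scaling, prior, probe sets, test and arrays. The calculation was tested on simulated data. Precision is set by the number of arrays, since these have no read depth.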

Additional observations from a re-analysis of the deposited data

How the results depend on the processing

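Of 4 higher members at an unadjusted p under 0.05 from limma, 2 were counted without the eye number as a block, with a floor of 64 and with a mean intensity of at least 100, and 0 to 2 when an eye or pair was left out. With the methods' t-test 2 others were counted, Kcnf1 and Kcnn2, and none of the 4, and Kcnk1 took the place of Kcna5 as the 1 lower member. The count of lower members was 1 in limma, and it was 2 with a floor of 64, without an intensity filter and with arrays scaled to the same median, 3 with an intensity trend and robust prior, and 0 to 3 when an eye or pair was left out. At the study's thresholds the 2 higher members became 0 without the block or with the methods' t-test, and 1 with a floor of 64, without a filter, with median scaling or without the 2 noncoding RNAs (an alternative chosen after seeing the data), and 0 to 1 with an eye or pair left out. The 1 lower member became 2 with median scaling, 3 with the trend and robust prior, and 0 to 2 with an eye or pair left out. Members higher in all 3 pairs numbered 11, or 7 with a mean of at least 100 or median scaling, and 14 to 22 over any 2 pairs, and members lower in all pairs 13, or 20 with median scaling, and 14 to 25 over any 2 pairs.

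The median of the Kv2 modifiers was -0.12 with a mean of at least 100, -0.0451 with median scaling and -0.1641 to 0.04 with an eye or pair left out. That of the calcium- and sodium-activated channels was -0.2162 to 0.0411 with a pair left out and -0.1801 to -0.0195 with a crush eye left out, and that of inward rectifiers -0.1209 to -0.0095 and -0.0992 to 0.0171, or -0.0819 with the mean over a gene's probe sets. The cause of these shifts was not tested. The block could not change these medians, because every pair holds a control eye and a crushed eye. Kcna5 kept an unadjusted p under 0.05 in 10 of 15 settings, Kcnj1 in 10 of 14, Kcnk3 in 7 of 13 and Kcnt1 and Kcnq1ot1 each in 7 of 15. None of them changed sign, but the settings of block, filter and prior can alter only the p and not the log2 difference. Kcnk3 gave no value with a floor of 64. Precision was limited by 3 arrays per group and by signals near the minimum for Kcnj1, Kcnk3 and Kcnq5.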
